A study of Mus musculus with 10 samples.

Results

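Lmo1, Lmo2, Lmo3 and Lmo4, which encode the LIM-only proteins, and Ldb1 and Ldb2, which encode their LIM-binding partners, were followed through RNA sequencing libraries of mouse cerebral cortex at postnatal day 8. The 6 genes were found by symbol among the 30935 genes of the count table, and all 6 were expressed above the filter on low counts. The family was selected on values of these same libraries, namely the opposite differences of Lmo3 and Lmo4 between the genotypes, so those differences are described here, and their standing in the fit over all genes is no independent test of them. The other 4 genes joined by family name. 5 libraries came from mice homozygous for the deletion of HAR.505, a human accelerated region in the Rbfox1 locus (genotype Rbfox1 ΔHAR.505/ΔHAR.505, called knockout; replicates 1, 3, 5, 6 and 8), and 5 from Rbfox1 +/+ mice (called wild type; replicates 2, 4, 5, 6 and 7). The design text calls the samples of each genotype independent. The sources used here give no strain, sex, litter or extent of dissection. P-values set the difference between genotypes against the spread between these samples.

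LIM-only proteins consist of little more than a pair of LIM zinc-finger domains and bind no DNA themselves. They are held by Ldb proteins, which self-associate and carry a LIM-interaction region, and in this way join basic helix-loop-helix, GATA or LIM-homeodomain factors in one complex, or compete with LIM-homeodomain factors for Ldb. In the developing cortex Lmo4 is known for its graded expression across areas and its role in sensory cortical patterning. Lmo3 is known as a neuronal gene of the forebrain, and Lmo2 as a regulator of blood and endothelial development.

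Library totals ran from 16479594 to 22391943 counts. The cortical projection neuron markers were detected in every library, at widely differing levels. Levels are in CPM, counts relative to the library total scaled with TMM factors. The vesicular glutamate transporter gene Slc17a7 averaged 989 ± 110.0 CPM in knockout and 927 ± 43.1 CPM in wild-type cortex (SD, n = 5 each). Neurog2, a proneural gene placed in the same list, averaged 1.10 ± 0.623 CPM in knockout and 0.657 ± 0.381 CPM in wild type (SD, n = 5 each). None of the 10 markers of that list had 0 counts in any library. The deleted element is noncoding, so gene counts do not check the genotype labels. Rbfox1 itself stood at 215 ± 23.4 CPM in knockout and 224 ± 14.4 CPM in wild type (SD, n = 5 each).

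The windows around the annotated starts of Lmo3 and Lmo4 are shown because these are the genes with opposite differences. They come from RefSeq on GRCm38.p6, not the mm39 build of the counts, and run from 250 bases before to 50 bases after a start. Both genes lie on the minus strand, the Lmo3 window at chr6:138581919-138582218 and the Lmo4 windows of its first and second listed starts at chr3:144205206-144205505 and chr3:144202347-144202646. Each reads 5′ to 3′ on the gene's strand, and capitals mark CANNTG, the E-box to which basic helix-loop-helix proteins bind.
Lmo3: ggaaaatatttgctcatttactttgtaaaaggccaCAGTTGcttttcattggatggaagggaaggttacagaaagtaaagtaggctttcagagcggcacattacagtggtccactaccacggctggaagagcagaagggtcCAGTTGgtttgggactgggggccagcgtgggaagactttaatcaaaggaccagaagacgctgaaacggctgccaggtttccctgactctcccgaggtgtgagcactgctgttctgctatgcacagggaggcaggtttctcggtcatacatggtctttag
Lmo4 first start: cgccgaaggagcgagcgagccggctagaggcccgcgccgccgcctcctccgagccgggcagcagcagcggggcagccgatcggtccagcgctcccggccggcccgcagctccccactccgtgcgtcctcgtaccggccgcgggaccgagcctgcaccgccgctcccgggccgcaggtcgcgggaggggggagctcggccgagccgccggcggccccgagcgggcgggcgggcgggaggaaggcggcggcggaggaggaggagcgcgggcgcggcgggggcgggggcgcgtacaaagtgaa
Lmo4 second start: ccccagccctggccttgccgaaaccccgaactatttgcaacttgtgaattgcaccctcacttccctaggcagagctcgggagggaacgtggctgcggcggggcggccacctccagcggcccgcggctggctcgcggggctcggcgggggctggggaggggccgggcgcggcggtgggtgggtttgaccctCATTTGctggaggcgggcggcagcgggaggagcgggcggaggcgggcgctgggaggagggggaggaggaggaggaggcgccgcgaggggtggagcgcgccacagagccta

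The windows differed in base composition. The Lmo3 window had 50% G and C and 7 CpG dinucleotides, close to the medians of 52.7% and 7 over all 32851 windows of 300 bases. The first Lmo4 window had 81.3% G and C and 52 CpG dinucleotides, and 99.3% of all windows had a lower G and C content. The second had 73.7% and 30. CANNTG, a palindrome that reads alike on both strands, occurred 2 times in the Lmo3 window, 0 times in the first and 1 time in the second Lmo4 window, and 72.3% of all windows held it. TAATTA, a core bound by homeodomains and also a palindrome, was in none of the 3 windows shown and in 5.29% of all windows. AGATAA, searched on both strands as a site for zinc-finger factors of the Gata family, was in none of the 3 and in 11.2% of all. The third listed Lmo4 window overlaps the second and held the same E-box. A match of letters is a description and no binding was measured.

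Per kilobase of exon, Lmo4 was the most abundant of the 6 genes. Exon lengths were taken from GENCODE M21 and may differ from the annotation used for counting. In knockout cortex the level of Lmo4 was 64.5 ± 2.71 CPM per kb, followed by Lmo3 at 29.0 ± 1.65, Ldb2 at 24.5 ± 1.67, Ldb1 at 17.1 ± 1.12, Lmo1 at 16.1 ± 2.29 and Lmo2 at 7.04 ± 0.0990 (SD, n = 5 each). In wild-type cortex Lmo4 stood at 55.1 ± 2.34 CPM per kb, Lmo3 at 37.9 ± 2.04, Ldb2 at 21.2 ± 1.77, Lmo1 at 19.5 ± 1.20, Ldb1 at 17.6 ± 0.944 and Lmo2 at 6.76 ± 0.577 (SD, n = 5 each). The libraries of Ldb1 and Lmo1 overlapped in both genotypes, and so did those of Ldb2 with Lmo1 and with Ldb1 in wild type, so the ranges do not separate these neighbours. Within a library Ldb1 was above Lmo1 in 3 of 5 knockout libraries and Lmo1 above Ldb1 in 4 of 5 wild-type libraries. Ldb2 was above Lmo1 in 5 of 5 wild-type libraries and above Ldb1 in 4 of 5. In knockout the lowest Lmo3 level was 26.3 and the highest Ldb2 level 26.02 CPM per kb. In wild type the corresponding values were 35.8 and 23.7.

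Lmo3 was lower in every knockout library than in any wild-type library. In replicate order the knockout libraries held 158, 135, 151, 149 and 150.5 CPM, and the wild-type libraries 189, 205, 207, 184 and 189 CPM. The gap between the highest knockout and the lowest wild-type library was 25.8 CPM, with knockout replicate 3 lowest and wild-type replicate 5 highest. The means were 149 ± 8.49 CPM in knockout and 195 ± 10.5 CPM in wild type (SD, n = 5 each). The log2 fold change was -0.39 (SE 0.051, 95% interval -0.49 to -0.29). On the linear scale the knockout level was 0.764 of the wild-type level, with an interval of 0.711 to 0.820. In bulk tissue fewer cells of a type and less RNA per cell cannot be told apart.

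Lmo4 was higher in every knockout library than in any wild-type library, but the separation was narrower. The knockout libraries held 214, 232, 221, 236 and 234 CPM, against 183, 195, 194, 196 and 206 CPM in the wild-type libraries. Knockout replicate 1 and wild-type replicate 7 came within 8.48 CPM of each other. The means were 228 ± 9.55 CPM in knockout and 195 ± 8.26 CPM in wild type (SD, n = 5 each). This is a log2 fold change of 0.23 (SE 0.047, 95% interval 0.13 to 0.32), or 1.17-fold. When a single library was left out, Lmo4 lost the call over all genes in 5 of 10 fits. Its log2 fold change was then 0.22 without knockout replicate 3, 0.21 without knockout replicate 6, 0.20 without wild-type replicate 2, 0.23 without wild-type replicate 4 and 0.23 without wild-type replicate 5. Lmo4 also lost it with the replicate block, with a sex covariate and with 1 surrogate variable, at log2 fold changes of 0.23, 0.21 and 0.21. By Xist against Y-linked counts, 3 of 5 knockout and 4 of 5 wild-type libraries were female. Lmo3 kept its call in all 3 of these fits and in all 10 with a library left out. In these 10 its log2 fold changes lay between -0.41 and -0.35. It lost the call with the mean of the striatal or of the choroid and ependymal markers as a covariate. Since the same libraries chose both genes, kept calls are a description and no support for the differences.

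**Figure D1:**
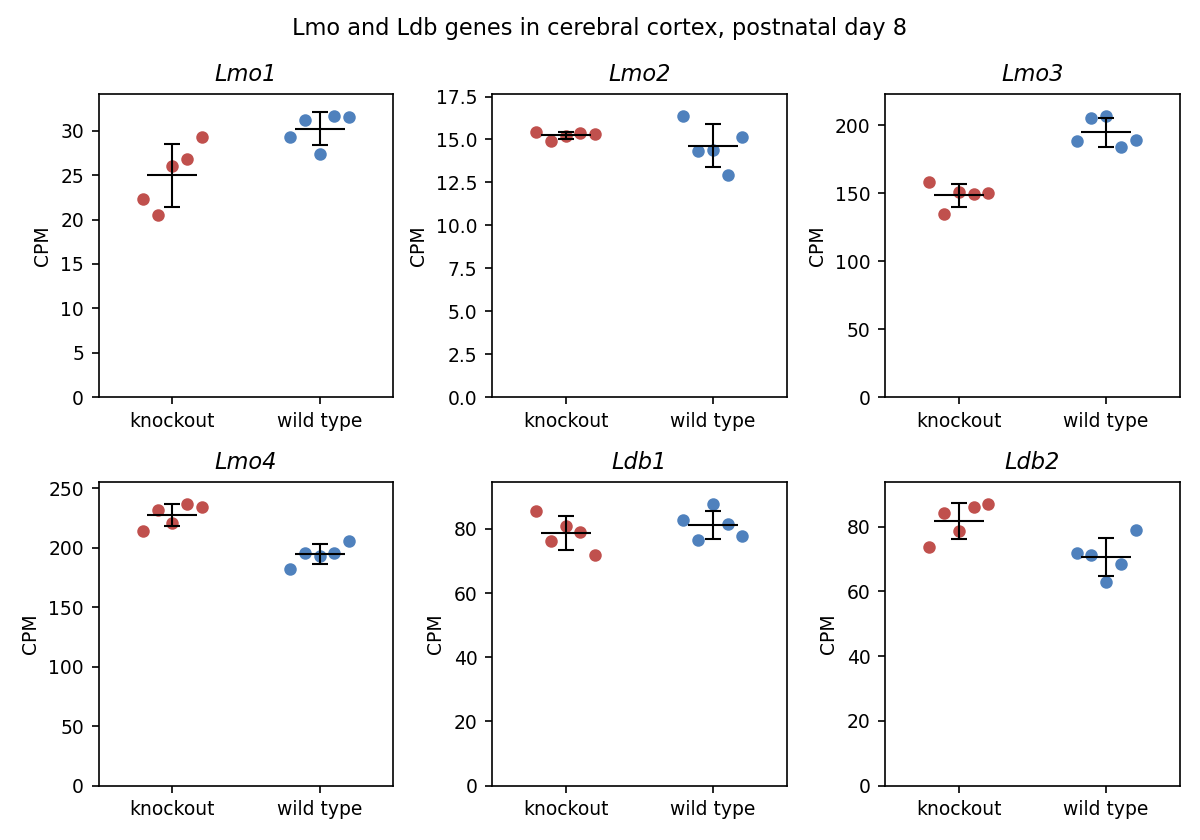
CPM of the 6 genes (vertical axes, from 0) in knockout and wild-type libraries. Points are libraries, and horizontal lines with bars are means and SDs of 5 libraries. The knockout and wild-type points separate for Lmo3 (135 to 158 against 184 to 207 CPM) and Lmo4 (214 to 236 against 183 to 206 CPM) and overlap for the other 4 genes.

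The ratio of Lmo4 to Lmo3 counts within a library needs no scaling between libraries. It was 1.36, 1.72, 1.47, 1.59 and 1.56 in the knockout libraries and 0.967, 0.953, 0.936, 1.06 and 1.09 in the wild-type libraries. Lmo4 thus drew more counts than Lmo3 in all 5 knockout libraries, while the genes drew similar counts in wild type. On the log2 scale the ratio averaged 0.62 ± 0.13 in knockout and -0.00048 ± 0.099 in wild type (SD, n = 5 each). The difference of 0.62 stayed between 0.57 and 0.66 whichever library was left out, and it was 0.54 without knockout replicates 3, 5 and 6. Its direction follows from the choice of the genes and it was not tested.

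**Figure D2:**
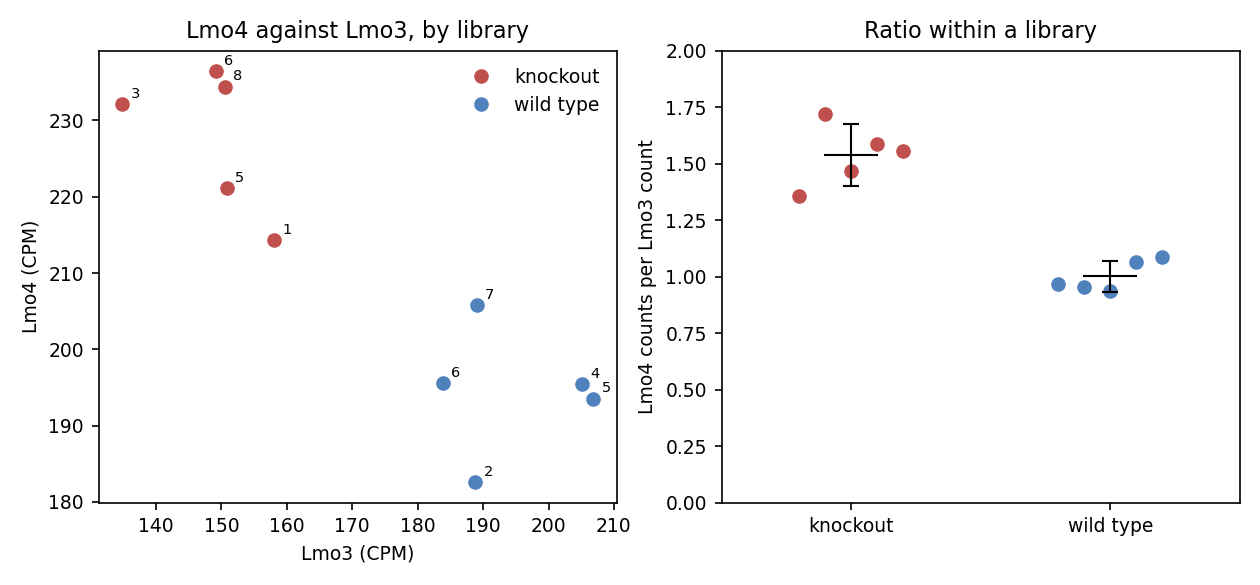
Left, Lmo4 against Lmo3 in CPM, with a point per library and its replicate number. Right, Lmo4 counts per Lmo3 count, with means and SDs of 5 libraries. Knockout libraries lie at the upper left, with ratios of 1.36 to 1.72, and wild-type libraries at the lower right, with ratios of 0.936 to 1.09.

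Within a genotype, the values of Lmo3 and Lmo4 were loosely related. Over the 10 libraries, deviations of log2 CPM from the genotype mean gave a Pearson r of -0.30 and a Spearman rho of -0.37 for this pair, values that describe these libraries only. Knockout replicate 3 had the lowest Lmo3 and the highest ratio, and knockout replicate 1 had the highest Lmo3 and the lowest Lmo4 of its genotype. Wild-type replicate 7, by contrast, had the highest Lmo4 of its genotype at an Lmo3 level in the middle of it.

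Lmo1, a paralog known as an oncogene of T cells and for its neural expression, stood at 22.3, 20.5, 26.1, 26.8 and 29.3 CPM in knockout and at 29.3, 31.2, 27.3, 31.7 and 31.5 CPM in wild type. 4 of 5 knockout libraries lay below the lowest wild-type library, and knockout replicate 8 lay inside the wild-type range. The log2 fold change was -0.27 (SE 0.090, 95% interval -0.46 to -0.09), which did not pass the edgeR test over all genes (adjusted p = 0.268). Lmo1 drew 371 to 524 counts in a knockout library, and its SE was larger than that of Lmo3.

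Lmo2, the blood and endothelial paralog, was the least abundant. It stood at 15.4, 14.9, 15.2, 15.4 and 15.3 CPM in the knockout libraries, against 16.4, 14.3, 14.4, 12.95 and 15.2 CPM in the wild-type libraries. All knockout libraries fell inside the wild-type range. The log2 fold change was 0.06 (SE 0.10, 95% interval -0.15 to 0.26; edgeR adjusted p = 0.940), an interval that includes changes of either sign. The summed level of the 12 endothelial markers ran from 268 to 293 CPM in knockout and from 267 to 298 CPM in wild type, with 0 of 12 past the edgeR test and 0 at an unadjusted p under 0.05. Of 7 red cell markers 5 were tested, all 5 with a negative log2 fold change at a median of -0.36. Of these 5, 0 passed the edgeR test and 2 had an unadjusted edgeR p under 0.05. Over all tested genes the shares were 0.381% and 8.71%. The summed level of the red cell markers was 393, 422, 421, 386 and 693 CPM in the knockout libraries and 483 to 684 CPM in wild type. All knockout libraries except replicate 8 were thus below every wild-type library. The part of the red cell markers in the level of Lmo2 was not tested.

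Ldb1, the more widely expressed LIM-binding partner, held 85.7, 76.2, 80.9, 78.9 and 71.8 CPM in knockout and 82.8, 76.6, 87.6, 81.5 and 77.8 CPM in wild type. The genotypes overlapped, and the log2 fold change was -0.05 (SE 0.057, 95% interval -0.16 to 0.07; edgeR adjusted p = 0.905). Exons of Ldb1 overlap those of Pprc1 on the opposite strand over 177 of 4606 bases, and without a stated strand setting the reads of these bases cannot be told apart. The other 5 genes have no exon overlap with another gene in GENCODE M21.

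Ldb2, the second LIM-binding partner and a known marker of deep-layer neurons, held 73.7, 84.2, 78.6, 85.9 and 86.8 CPM in knockout, against 71.9, 71.4, 62.9, 68.3 and 79.1 CPM in wild type. All 5 knockout libraries lay above the wild-type median, and 3 lay above the highest wild-type library. The log2 fold change was 0.21 (SE 0.062, 95% interval 0.08 to 0.34), close to that of Lmo4, and did not pass the edgeR test over all genes (adjusted p = 0.184). With the mean of the striatal markers as a covariate it was 0.08, and with that of the choroid and ependymal markers 0.14.

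The 4 Lmo genes together stood at 117 ± 4.30 CPM per kb in knockout and 119 ± 3.13 CPM per kb in wild type (SD, n = 5 each), with ranges that overlapped. Within that sum Lmo4 made up 55.3% ± 2.00 in knockout and 46.2% ± 1.12 in wild type, and Lmo3 24.8% ± 1.51 and 31.8% ± 1.54 (SD, n = 5 each). Lmo1 made up 13.8% in knockout (11.8 to 15.5) and 16.3% ± 0.955 in wild type, and Lmo2 6.04% ± 0.196 and 5.68% ± 0.555 (SD, n = 5 each). The summed level of Ldb1 and Ldb2 was 41.6 ± 0.829 CPM per kb in knockout, from 40.7 to 42.9, and 38.8 ± 1.19 CPM per kb in wild type, from 37.9 to 40.6 (SD, n = 5 each). These ranges did not overlap, by a narrow margin, and the sum was not tested. The ratio of Ldb2 to Ldb1 per kb was 1.45 ± 0.185 in knockout and 1.21 ± 0.153 in wild type (SD, n = 5 each), and its range of 1.19 to 1.67 in knockout overlapped that of 0.991 to 1.40 in wild type. The paralogs of the Ldb pair deviated in opposite directions within the genotypes, with a Pearson r of -0.82 and a Spearman rho of -0.76 between their deviations over the 10 libraries. Such values share each library's scaling and are given as a description.

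2 of the 6 genes, Lmo3 and Lmo4, passed the edgeR quasi-likelihood test over all genes at an adjusted p under 0.05. Among the 15488 tested genes 59 did, or 0.381%. 1 of the 6 was higher, against 0.187% of all genes, and 1 lower, against 0.194%. 4 of the 6, these genes with Lmo1 and Ldb2, had an unadjusted p under 0.05, against 8.71% of all genes. In 2 of the 6 the genotypes did not overlap in CPM, against 1.83% of all genes. Since the same contrast chose the family, nothing is read from these counts. The median log2 fold change of the 6 genes was 0.0062, beside -0.0021 over all tested genes. The count of 59 was 17, 37 and 182 without knockout replicate 3, 6 or 8, and 15, 21 and 17 without wild-type replicate 2, 4 or 5.

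5 lists of partners and related LIM-domain proteins and 1 list of cortical area genes held 89 tested genes. The edgeR test over all genes called 0 of these 89, against 0.381% of all tested genes. An unadjusted edgeR p under 0.05 was found for 17 of the 89, against 8.71% of all tested genes. The lists were chosen with earlier results of these data known, so nothing is read from these counts. With DESeq2 2 of the 89 passed, Fhl1 and Cdh8, and with limma-voom 1, Cyp26b1.

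LIM-homeodomain genes encode the DNA-binding proteins that use Ldb directly. 6 of 12 were expressed above the filter, 1 with a positive and 5 with a negative log2 fold change, at a median of -0.32. The median falls between Lhx1 (-0.30, SE 0.39) and Lhx5 (-0.33, SE 0.52). Both had very low counts, with means of 0.757 and 0.506 CPM in knockout and 0.935 and 0.625 CPM in wild type. That median was -0.16 without knockout replicate 3, -0.18 without knockout replicates 3, 5 and 6, -0.19 with a stricter filter, -0.21 with the striatal covariate and 0.01 with the choroid covariate. Isl1, a factor of striatal neurons, had very low counts, at 0.244 ± 0.283 CPM in knockout and 1.11 ± 0.450 CPM in wild type (SD, n = 5 each), and stands in the striatal list as well. Its log2 fold change of -2.17 (SE 0.62) had an edgeR adjusted p of 0.172, and 2 knockout libraries had 0 counts. Lhx6, a factor of interneurons from the medial ganglionic eminence, stood at 41.6 ± 1.69 CPM in knockout and 47.3 ± 5.10 CPM in wild type (log2 fold change -0.18, SE 0.071). Lhx2, a factor of cortical progenitors and upper layers, stood at 114 ± 5.52 CPM in knockout and 104 ± 7.34 CPM in wild type (log2 fold change 0.13, SE 0.055). Neither passed the test (edgeR adjusted p = 0.401 and 0.446).

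The Ssbp genes encode single-stranded DNA-binding proteins that stabilise Ldb. All 3 were tested, none passed, and none had an unadjusted edgeR p under 0.05. Ssbp2 averaged 112 ± 8.83 CPM in knockout and 107 ± 4.65 CPM in wild type, Ssbp3 87.6 ± 2.52 and 90.2 ± 5.10 CPM, and Ssbp4 128 ± 8.46 and 124 ± 12.4 CPM (SD, n = 5 each). Their log2 fold changes were 0.07 (SE 0.056), -0.04 (SE 0.053) and 0.04 (SE 0.061).

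Of 17 basic helix-loop-helix and GATA genes 13 were tested, 8 with a positive and 5 with a negative log2 fold change, and the median was 0.01. Neurod6, a factor of cortical projection neurons, had 136 ± 12.5 CPM in knockout and 122 ± 3.71 CPM in wild type (log2 fold change 0.15, SE 0.055, edgeR adjusted p = 0.345). For the E-protein gene Tcf4 the log2 fold change was 0.09 (SE 0.051), and for Neurog2, a proneural gene near 1 CPM at this age, 0.72 (SE 0.46). Among 11 genes for other binding or turnover proteins the median was -0.04. The corepressor gene Cbfa2t3 had a log2 fold change of -0.18 (SE 0.083, unadjusted p = 0.0373 and adjusted p = 0.522 by edgeR), Bex2, whose product binds LMO2 in human cells, one of -0.19 (SE 0.11), and Rlim, a ubiquitin ligase gene for Ldb proteins, one of -0.08 (SE 0.057).

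Other LIM-domain proteins, most of them of the cytoskeleton, had a median log2 fold change of -0.05 over 35 tested genes, 13 positive and 22 negative. In 1 of the 35, Fhl1, the genotypes did not overlap, against 1.83% of all tested genes. Fhl1 stood at 125 ± 3.64 CPM in knockout and 139 ± 3.14 CPM in wild type (SD, n = 5 each; log2 fold change -0.16, SE 0.046, edgeR adjusted p = 0.181). Log2 fold changes were -0.19 (SE 0.065) for the actin-binding LIM gene Ablim3 and 0.16 (SE 0.070) for Csrp1, which encodes a cysteine-rich LIM protein.

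Genes graded across cortical areas, as Lmo4 is, had a median log2 fold change of -0.02 over 21 tested genes, 8 positive and 13 negative. At an unadjusted edgeR p under 0.05, 5 of the 21 were higher and 3 lower, against 8.71% of all genes in either direction. Cdh8, a cadherin gene, stood at 133 ± 9.95 CPM in knockout and 113 ± 9.37 CPM in wild type without overlap (log2 fold change 0.24, SE 0.059, edgeR adjusted p = 0.0756). Cyp26b1, which encodes an enzyme that degrades retinoic acid, stood at 19.0 ± 5.64 CPM in knockout and 31.5 ± 2.97 CPM in wild type, also without overlap (-0.73, SE 0.19, adjusted p = 0.228 by edgeR). In 2 of the 21 the genotypes did not overlap, against 1.83% of all tested genes. Lypd1, which encodes a membrane-anchored modulator of nicotinic receptors, had a log2 fold change of -0.20 (SE 0.060).

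**Figure D3:**
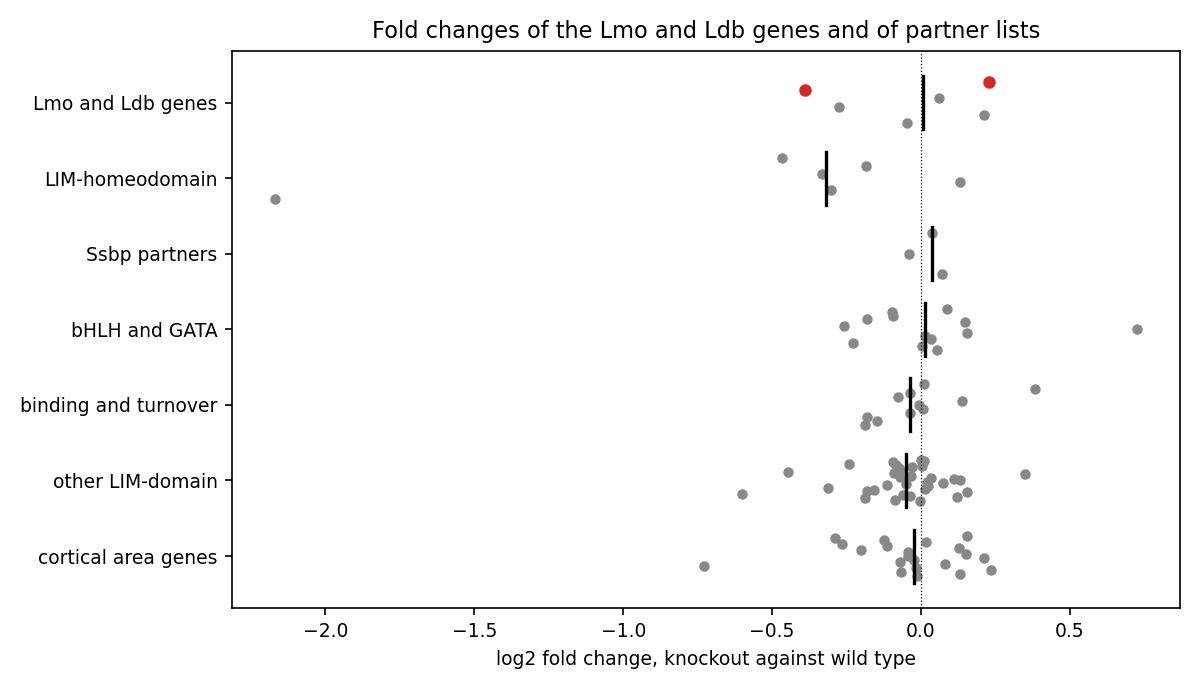
Log2 fold changes of knockout against wild type (horizontal axis) for the tested genes of 7 lists. Grey points did not pass the edgeR test over all genes, red points are Lmo3 at -0.39 and Lmo4 at 0.23, and black bars are list medians. No gene of the partner lists is red, and their medians lie between -0.05 and 0.04 except for the LIM-homeodomain list at -0.32, which is 0.01 with the choroid covariate.

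Markers of tissue next to the cortex were counted against the 0.194% of all genes that were lower past the test. Of 20 striatal markers 0 were higher and 3 lower past the edgeR test over all genes (Six3, Penk and Sp9), and 18 had a negative log2 fold change, at a median of -0.41. Their summed level was 511, 511, 515, 502 and 638 CPM in the knockout libraries and 631, 605, 769.5, 628 and 599 CPM in the wild-type libraries, and Isl1 was the striatal marker with 0 counts in some knockout libraries. By mean log2 CPM of these markers, knockout replicate 8 stood at 3.83 and the other 4 knockout libraries at 3.31 to 3.54, against 3.79 to 4.44 in wild type. Knockout replicate 8, within the wild-type range by both measures, had 150.5 CPM of Lmo3 and 234 CPM of Lmo4, within the range of the other knockout libraries for both genes. Its summed level of the choroid and ependymal markers, 209.9 CPM, was below every wild-type library.

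Of 18 choroid plexus and ependymal markers 0 were higher and 2 lower past the test (Clic6 and Tmem72), and all 18 had a negative log2 fold change, at a median of -0.82. Their summed level was 369, 123, 128, 128 and 209.9 CPM in knockout and 367, 429, 429.6, 420.3 and 452 CPM in wild type, and Ttr, Otx2 and Tmem212 had 0 counts in 1, 2 and 1 knockout libraries. By mean log2 CPM, where abundant genes weigh no more than others, the knockout libraries stood at 0.18 to 1.93, all below the wild-type libraries at 2.08 to 2.25. Knockout replicate 1 had a sum level with that of wild-type replicate 2, but a mean log2 CPM of 1.93, below every wild-type library. Its summed level of the striatal markers, 511 CPM, was also below every wild-type library. This library had the highest Lmo3 (158 CPM) and the lowest Lmo4 (214 CPM) of the knockout libraries, outside the wild-type range for both genes. Of 8 markers of lateral cortex, claustrum and amygdala, 3 had a positive and 5 a negative log2 fold change, at a median of -0.04. Past the test 0 were higher and 2 lower, Gnb4 (log2 fold change -0.23, SE 0.053) and Oprk1 (-1.16, SE 0.25). The summed level of these 8 markers ran from 1108 to 1240.1 CPM in knockout and from 1194 to 1276 CPM in wild type. None of the 8 hippocampal and 7 tested thalamic markers passed the edgeR test over all genes, 1 of each list had an unadjusted p under 0.05, and their medians were 0.09 and -0.16. Among cell types of the cortex, 3 of 19 interneuron markers were positive and 16 negative (median -0.07), with Slc32a1 called lower (-0.33, SE 0.061). Medians were -0.05 for upper layer and 0.02 for deep layer markers, Ldb2 among the latter. Of the microglial markers 11 were positive and 0 negative (median 0.10), and of the astrocyte markers 9 and 1 (0.09). These 4 lists had 0 genes past the test.

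With the mean log2 CPM of the striatal markers as a covariate the log2 fold change of Lmo3 was -0.28 and that of Lmo4 0.19, and with the choroid and ependymal markers they were -0.26 and 0.17. In neither fit did Lmo3 or Lmo4 pass the test, and 2 and 0 of 15488 genes did, where 648 and 739 had an unadjusted edgeR p under 0.05. Knockout replicates 3, 5 and 6 had the lowest choroid and ependymal sums of their genotype, at 123, 128 and 128 CPM. Without them, with knockout replicates 1 and 8 left, the log2 fold changes of Lmo3 and Lmo4 were -0.33 and 0.21. Lmo3 was called in that fit and Lmo4 was not. The marker levels themselves differ between the genotypes, so these covariates share variation with genotype, and their part in the differences of Lmo3 and Lmo4 was not tested.

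**Figure D4:**
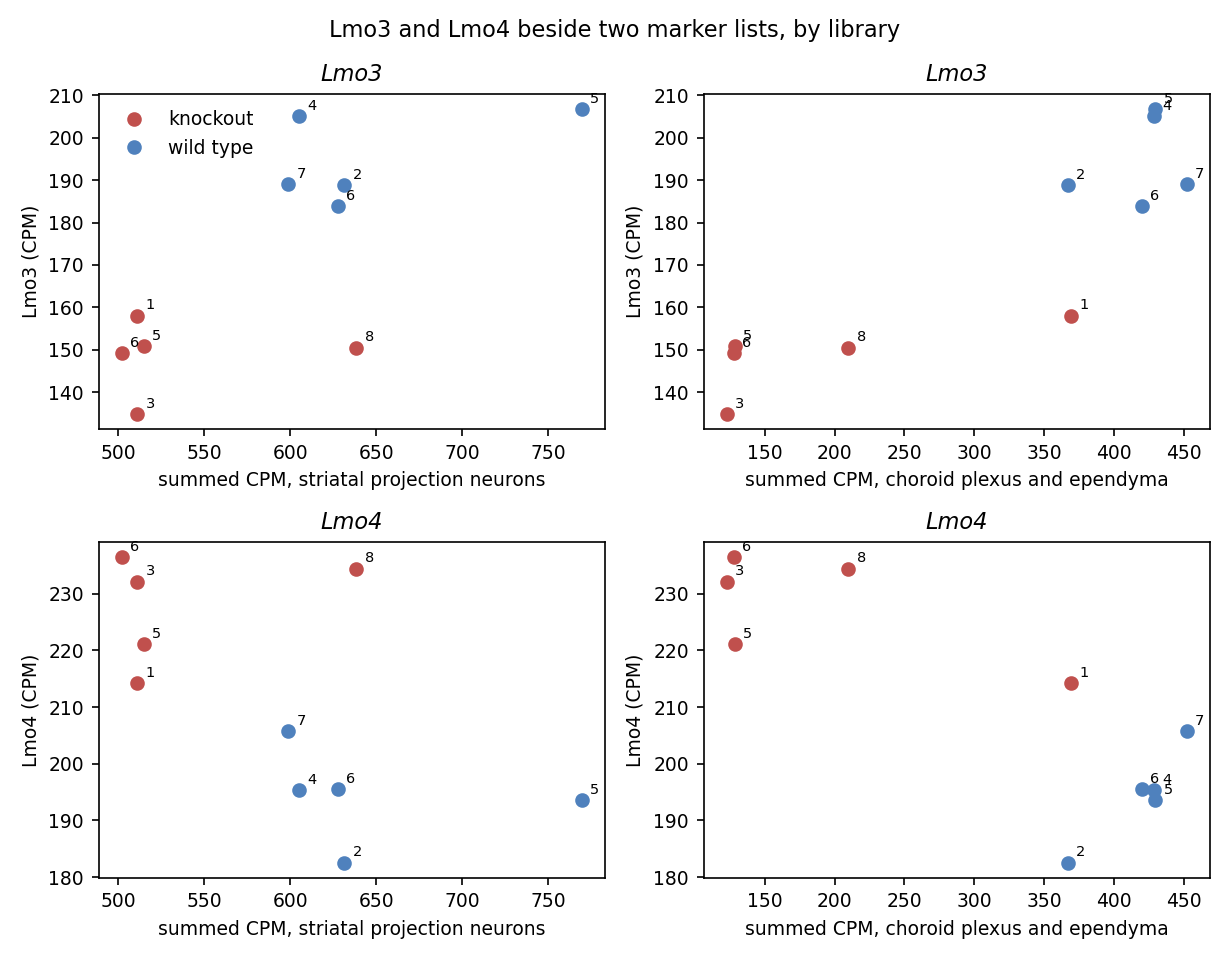
CPM of Lmo3 (top) and Lmo4 (bottom) against the summed CPM of the striatal (left) and of the choroid and ependymal markers (right), with a point per library and its replicate number. Knockout replicate 8 lies at 638 CPM on the striatal axis and knockout replicate 1 at 369 CPM on the choroid axis, inside the wild-type ranges of these sums. Neither is inside on both axes: replicate 8 lies at 209.9 CPM on the choroid axis and replicate 1 at 511 CPM on the striatal axis. Lmo3 and Lmo4 of both libraries lie outside the wild-type ranges.

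Genes whose variation within the genotypes most resembled that of Lmo3 and Lmo4 were ranked over 11564 named genes with at least 5 CPM, by the Pearson r of deviations from the genotype mean over 10 libraries. For Lmo3 they were Scg2, which encodes a secretory granule protein (r = 0.92, rho = 0.88), the mitochondrial ribosomal protein gene Mrpl40 (0.91, 0.92), the kinase gene Syk (0.90, 0.84), the ubiquitin ligase gene Marchf5 (0.90, 0.87) and the zinc-finger gene Zfp641 (0.90, 0.98). Scg2 had a log2 fold change of -0.25 (SE 0.072, edgeR adjusted p = 0.203), and the other 4 ranged from -0.11 to 0.10. For Lmo4 the first 4 were the ubiquitin-conjugating enzyme gene Ube2w (r = 0.98, rho = 0.99), Pigh (0.97, 0.96), Abcg2 (0.90, 0.88) and Ttll1 (0.89, 0.94), with log2 fold changes between -0.01 and 0.10. With 10 libraries and this many candidates high values arise readily, and they share library scaling, so they are given without a p.

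**Figure D5:**
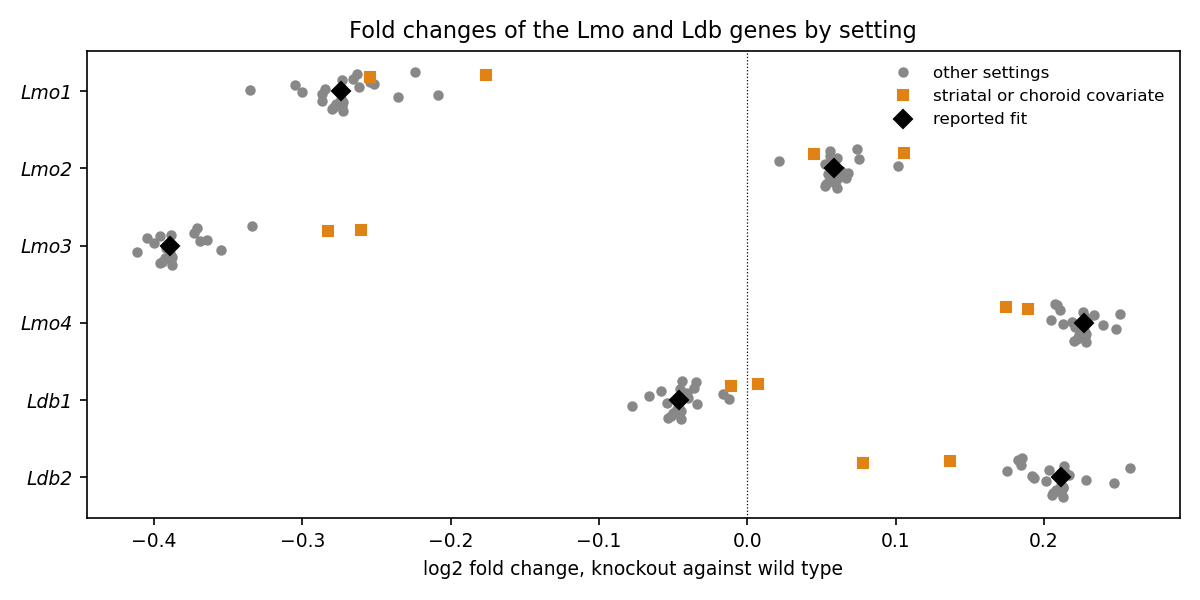
Log2 fold changes of the 6 genes under the reported fit (diamonds), under 22 alternative settings (circles) and with the striatal or choroid markers as a covariate (squares). Lmo3 stays between -0.41 and -0.26 and Lmo4 between 0.17 and 0.25, and Ldb1 lies on either side of 0.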

How the data were processed

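The values deposited by the authors are raw counts for each Entrez gene in the 10 libraries. The submitters' processing notes name HISAT2, featureCounts and mm39, and no source used here states the annotation or strand setting. Symbols came from a RefSeq table of GRCm38.p6 (30648 of 30935 identifiers matched). Pairs of libraries of 1 genotype differed by more than sampling noise (chi-square per degree of freedom 4.10 to 13.9).

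In R 4.3.3, edgeR 4.0.16 was used with filterByExpr, TMM factors and the robust quasi-likelihood F test of genotype over 15488 genes, both directions counted, with Benjamini-Hochberg adjustment and a threshold of 0.05. Each standard error is the absolute log2 fold change divided by the root of F. The sex covariate was read from Xist against Y-linked counts. Log2 CPM used a prior count of 2. DESeq2 1.42.0, limma 3.58.1, sva 3.50.0 and other normalizations, filters, covariates and left-out libraries were alternatives. The fit was tested on simulated data.

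The genes, lists and alternatives were chosen with earlier results of these data known. Named genes were the 6 members, the 3 Ssbp genes, the genes past the threshold and the 3 with the smallest p of each partner list and of the cortical area list, markers of cortical projection neurons, and the 5 genes most like Lmo3 and Lmo4. 1 gene that this rule names is not reported here. Marker genes past the test or at 0 counts, Rbfox1, Lhx1, Lhx5 and genes called under alternatives were named after their values were seen.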

Additional observations from a re-analysis of the deposited data

Results flagged for a closer look

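Single libraries stood apart from the remaining 4 of their genotype in 3 of 32 comparisons of 5 libraries by Dixon's ratio, which chance exceeds in about 1 of 20. None concerned an Lmo or Ldb gene. Knockout replicate 8 had the highest summed level of the striatal markers in its genotype, at 638 CPM, and of the red cell markers, at 693 CPM. Its Lmo3, 150.5 CPM, was within the range of the other knockout libraries. Wild-type replicate 5 had the highest summed level of the striatal markers among wild-type libraries, at 769.5 CPM, and also the highest Lmo3 among them, at 207 CPM. Wild-type replicate 4 had 205 CPM of Lmo3 at a striatal sum of 605 CPM.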

How the results depend on the processing

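Over 24 alternatives Lmo3 (-0.41 to -0.26), Lmo4 (0.17 to 0.25), Lmo1, Lmo2 and Ldb2 kept their sign, and Ldb1 turned to 0.0069 with the choroid covariate. Lmo3 was called in 22 and Lmo4 in 13 of these fits. The number of Lmo and Ldb genes called, 2, was 1 with the replicate block, the sex covariate, 1 surrogate variable, or without knockout replicates 3, 5 and 6 together, and 0 with the striatal or the choroid covariate (2 at an unadjusted edgeR p under 0.05 in each), and it was 1 to 2 with 1 library left out. The 59 genes called over the table became 171 with no filter, 124 with DESeq2, 30 with the replicate block, 28 with the sex covariate, 24 with 1 surrogate variable, 12 without the 3 knockout libraries, 2 with the striatal and 0 with the choroid covariate (739 at an unadjusted edgeR p under 0.05), and 15 to 182 with 1 library left out. Of the partner and area genes, 0 of 89 in the reported fit, 4 of 101 were called with no filter (Lhx8, which the filter removes, Isl1, Cdh8 and Cyp26b1), 2 of 89 with DESeq2, 1 with limma-voom, 1 without robust dispersions, and 0 to 4 with 1 library left out (4 without knockout replicate 8, 1 without wild-type replicate 7). The causes were not tested. The genotypes share the replicate numbers 5 and 6 alone, whose libraries had correlations of deviations of -0.05 and -0.19. With 2 such values it cannot be settled whether the numbers pair the samples, and the reported fit treats them as unpaired.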
